A study of Mus musculus with 8 samples.

Results

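The genes described here are 10 cytokine response genes: the receptor subunits Osmr, Il6st, Lifr, Il4ra and Il1r1, the transcription factor Stat3, the feedback inhibitors Socs3, Socs2 and Cish, and the acute phase gene Serpina3n. They were found by gene name among the 54532 genes of the deposited table, and all 10 were present once and passed the low-count filter that left 16205 genes. The genes were chosen by name as cytokine receptors, STAT3 and its targets, and selected on differences in read counts between knockout and wild type seen in an earlier look at the same table. The difference between the groups is therefore a description for these 10 genes, with no test drawn from it.

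RNA was sequenced from first molars of mouse pups on the C57BL/6 strain, from 4 wild-type libraries (WT 2, 3, 4 and 5) and 4 libraries of Wdr72-/- mice (KO 1, 3, 4 and 5), all untreated as far as the labels say. The pups are labelled postnatal day 12, while the dissection text gives day 13. The knockout came from a mouse repository, and the labels do not give the deleted part of Wdr72, which encodes a WD-repeat protein needed for enamel to mature. The pulp had been removed and the rest of the molar was homogenised whole, so cells other than the labelled ameloblasts could contribute RNA. Whether a library was 1 pup or a pool is not stated, so every p-value rests on a spread among libraries that may be partly technical.

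Cytokines of the interleukin-6 family bind receptor complexes that share the subunit gp130, encoded by Il6st, together with a partner such as the oncostatin M receptor (Osmr) or the LIF receptor (Lifr). The Janus kinases on these receptors phosphorylate STAT3, which enters the nucleus and turns on genes that include its own inhibitor Socs3 and acute phase genes such as Serpina3n. The interleukin-4 receptor (Il4ra) signals mainly through STAT6, growth hormone and related cytokines through STAT5 to Cish and Socs2, and the interleukin-1 receptor (Il1r1) through NF-κB.

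The libraries held 17084475 to 21887462 reads, and levels are given as CPM, reads per 1000000 reads of the TMM-scaled library total. Wdr72 was at 173 to 326 CPM in the WT libraries and at 102, 37.7, 24.9 and 15.8 CPM in KO 1, 3, 4 and 5, so KO 1 was at 41.9% of the WT mean and KO 5 at 6.51% (log2 fold change over the 4 libraries -2.43, adjusted p = 0.080 in edgeR). The libraries are called KO by their labels throughout. All 8 ameloblast markers were detected in every library (Amelx, Ambn, Enam, Amtn, Odam, Klk4, Mmp20 and Slc24a4), with a summed level of 53311 to 97561 CPM in WT against 59638 to 81082 CPM in KO. Ambn and Odam weighed most in this sum, and Enam ranged from 50.1 to 831 CPM over the libraries. KO 5 stood apart, with a mean correlation of 0.965 with the other libraries against 0.98 to 0.983 for the rest. Xist lay at 251 to 838 CPM in WT against 177 to 356 CPM in KO, and the sex of the pups is not given in the labels.

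Of the 10 genes, Serpina3n, Il4ra, Socs3 and Stat3 were higher in every KO library than in any WT library, and the other 6 had overlapping groups. By edgeR's quasi-likelihood test over all genes 0 of the 10 passed an adjusted p of 0.05, where 0.0309% of all genes did and 0.0123% did so with KO higher. At an unadjusted p of 0.05 these 4 genes passed, all higher in KO, where 15.7% of all genes passed in either direction. The same 4 were called by DESeq2, which called 2.87% of all genes, and by limma voom, which called 6.62%. Groups that did not overlap, with KO higher, were seen in 5.5% of all genes tested. In edgeR, Il4ra passed without KO 1 and Socs3 passed without KO 5, so 1 of the 10 genes was called in each case. With the Xist level as a covariate 0 of the 10 were called. At an unadjusted p of 0.05, 3 were then higher, where 3.05% of all genes were. Without both KO 1 and KO 5 the log2 fold changes were 2.24 for Serpina3n, 1.58 for Il4ra, 1.084 for Socs3 and 0.45 for Stat3. In whole molars a higher level can come from more cells of a type or from more RNA per cell, which cannot be told apart. Nothing is read from these counts, because the 10 genes were chosen with this contrast in view.

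**Figure D1:**
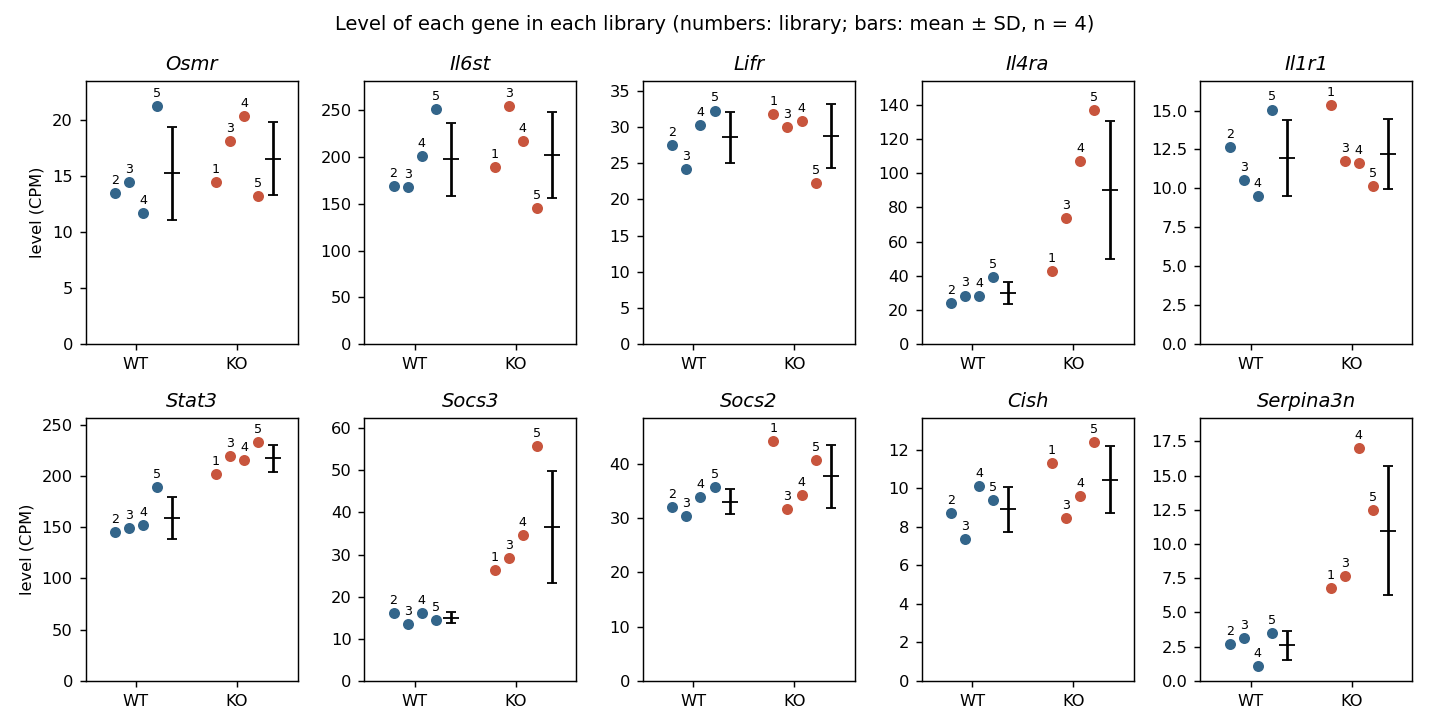
Level in CPM of each of the 10 genes in each library, on linear axes that start at 0; points are libraries with their numbers, and the bars give mean ± SD over 4 libraries. Il4ra, Stat3, Socs3 and Serpina3n have KO points that all lie above the WT points, while the other 6 genes overlap.

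Socs3 encodes the inhibitor that binds gp130 and the Janus kinases and ends STAT3 signalling (ENSMUSG00000053113, GRCm38 chromosome 11, 117966079 to 117970047, minus strand). Its level was 16.1, 13.5, 16.02 and 14.5 CPM in WT 2, 3, 4 and 5. In KO 1, 3, 4 and 5 it was 26.3, 29.2, 34.7 and 55.7 CPM. The WT libraries lay close together, and the lowest KO library was 1.63 times the highest WT library. The means were 15.04 ± 1.28 CPM in WT against 36.5 ± 13.3 CPM in KO (SD, n = 4 each), a ratio of 2.43 and a log2 fold change of 1.28 (SE 0.21). No other gene of the table with reads overlapped Socs3.

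Il4ra encodes the chain shared by the receptors for interleukin-4 and interleukin-13 (ENSMUSG00000030748, chromosome 7, 125552120 to 125579474, plus strand). The WT libraries had 24.2, 28.5, 28.4 and 39.3 CPM. The KO libraries had 43.0, 73.7, 107 and 137 CPM in the order KO 1, 3, 4 and 5. The KO libraries were thus spread over a wide range, and KO 1 exceeded the highest WT library by a factor of only 1.10. The means were 30.1 ± 6.44 CPM and 90.1 ± 40.6 CPM, a ratio of 2.99 and a log2 fold change of 1.58 (SE 0.29).

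Promoter letters were read for the 10 genes and for the pathway genes described further on. The stretches shown were picked by hand, among them that of Cish, whose promoter is a textbook STAT target. Icam1 and Serpina3i are pathway genes with a match, and the matches of other pathway genes are not shown. RefSeq windows of 300 bases on GRCm38.p6, from 250 before to 50 after each start, were found for 9 of the 10 genes (11 windows). The STAT-type letters TTCNNNGAA, which read the same on either strand, were in 2 of these 11 windows, against 8.30% of all 32851 windows. The STAT6-type letters TTCNNNNGAA, also the same on either strand, were in 0 of the 11, against 6.95% of all. The stretches below are written 5′ to 3′ on the gene's strand, with matches in capitals. Shown are the matches of Socs3 (chr11:117969501-117969530, minus strand) and Cish (chr9:107296654-107296683, plus strand), the match of Icam1 (chr9:21015887-21015916, plus strand), and a stretch of Il4ra upstream of its first exon (chr7:125552031-125552111, plus strand).
Socs3: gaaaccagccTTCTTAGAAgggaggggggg
Cish: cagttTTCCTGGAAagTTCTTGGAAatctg
Icam1: aggcgcgaggtTTCCCGGAAagtggccccg
Il4ra: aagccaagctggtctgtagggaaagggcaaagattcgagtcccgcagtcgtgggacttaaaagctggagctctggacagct
The Socs3 match began 154 bases before the RefSeq start. Cish held 2 matches, beginning at bases 1 and 12 of its transcript, and 0.457% of all windows held 2 or more. Of the windows of the pathway genes described further on, 15.8% of 146 held TTCNNNGAA, the Icam1 window among them. The stretch of Il4ra held neither set of letters, which says only that they are not in this window.

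Serpina3n encodes a secreted serine protease inhibitor of the acute phase response (ENSMUSG00000021091, chromosome 12, 104406729 to 104414329, plus strand). It had few reads, from 23 to 370 in a library. Its level was 2.71, 3.15, 1.09 and 3.50 CPM in WT, and 6.77, 7.65, 17.0 and 12.5 CPM in KO 1, 3, 4 and 5. The lowest KO library was 1.94 times the highest WT library. The means were 2.61 ± 1.06 and 10.99 ± 4.74 CPM, a ratio of 4.21 and a log2 fold change of 2.08 (SE 0.36). With the Xist level as a covariate the log2 fold change was 3.16. Serpina3n belongs to a cluster of close paralogs, so its count is uncertain where reads could be split among them. Of the paralogs listed, Serpina3i was at 3.02 ± 0.887 CPM in WT against 5.38 ± 0.994 CPM in KO (log2 fold change 0.84, SE 0.23, adjusted p = 0.15 in edgeR), and its groups overlapped.

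Serpina3n is shown beside Serpina3i, the paralog of the list with the most reads, whose window holds matches to both sets of letters. Each stretch runs from 110 to 11 bases before the RefSeq start, for Serpina3n at chr12:104406598-104406697 and for Serpina3i at chr12:104263012-104263111, both on the plus strand.
Serpina3n: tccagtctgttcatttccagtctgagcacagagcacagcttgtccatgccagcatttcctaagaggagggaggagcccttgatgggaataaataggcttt
Serpina3i: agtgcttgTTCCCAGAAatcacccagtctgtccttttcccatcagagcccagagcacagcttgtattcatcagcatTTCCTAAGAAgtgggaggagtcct
Serpina3i held 1 match to each set of letters and Serpina3n held none in its window. A match is a description of the letters and was not tested as a binding site. Serpina3n, without a match, was the gene with the larger log2 fold change of the pair, at 2.08 against 0.84, a difference that was not tested.

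Stat3 encodes the transcription factor itself (ENSMUSG00000004040, chromosome 11, 100885098 to 100939540, minus strand). It was at 145, 149, 152 and 189 CPM in WT and at 201, 219, 215 and 233 CPM in KO. The gap between the groups was small, with the lowest KO library 1.07 times the highest WT library. The means were 159 ± 20.2 and 217 ± 13.02 CPM, a ratio of 1.37 and a log2 fold change of 0.45 (SE 0.12). Stat5a overlaps Stat3 on the opposite strand and had 5.49% as many reads.

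The receptor subunits upstream of STAT3 (Il6st, Lifr and Osmr) and the interleukin-1 receptor Il1r1 had nearly equal means in the groups. Il6st (ENSMUSG00000021756, chromosome 13) was at 169, 168, 201 and 252 CPM in WT and at 190, 255, 217 and 146 CPM in KO, so that KO 5 was the lowest of the 8 libraries. Its means were 197 ± 39.3 and 202 ± 46.0 CPM, with a log2 fold change of 0.03 (SE 0.18). Lifr (ENSMUSG00000054263, chromosome 15) was at 28.6 ± 3.52 and 28.7 ± 4.39 CPM (log2 fold change 0.01, SE 0.14), and again KO 5 was the lowest library at 22.2 CPM. Osmr (ENSMUSG00000022146), on the same chromosome as Lifr, was at 15.3 ± 4.16 and 16.6 ± 3.30 CPM (log2 fold change 0.12, SE 0.20), with its highest level, 21.3 CPM, in WT 5 and its lowest, 11.8 CPM, in WT 4. Il1r1 (ENSMUSG00000026072, chromosome 1), the signalling receptor for interleukin-1, was at 11.9 ± 2.45 and 12.2 ± 2.22 CPM (log2 fold change 0.03, SE 0.18). For each of these 4 receptors the difference between the means was smaller than the SD within either group. The sign of the log2 fold change differed between settings for Il6st (-0.11 to 0.26), Lifr (-0.06 to 0.19) and Il1r1 (-0.09 to 0.30), scaling by library totals included.

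Cish and Socs2, inhibitors of STAT5 signalling from the same family as Socs3, had a smaller difference than Socs3. Socs2 (ENSMUSG00000020027, chromosome 10) was at 33.0 ± 2.34 CPM in WT against 37.7 ± 5.76 CPM in KO (log2 fold change 0.19, SE 0.13), with KO 1 highest at 44.2 CPM and KO 3 at 31.7 CPM among the WT values. Cish (ENSMUSG00000032578, chromosome 9) was at 8.92 ± 1.17 and 10.5 ± 1.75 CPM (log2 fold change 0.23, SE 0.16), with KO 5 highest at 12.4 CPM. In both genes the groups overlapped. The difference between these inhibitors and Socs3 in their log2 fold changes was not tested.

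The KO libraries differed among themselves in Il4ra and Socs3, and their order was the reverse of their order in Wdr72. KO 1 had 1.43 times the WT mean of Il4ra, KO 3 had 2.45 times, KO 4 had 3.55 times and KO 5 had 4.55 times. For Socs3 the ratios were 1.75, 1.94, 2.31 and 3.71. Wdr72 had the reverse order, at 0.419, 0.155, 0.102 and 0.0651 times its WT mean. Serpina3n did not keep this order, at 2.59, 2.93, 6.52 and 4.79 times, and Stat3 varied little, from 1.27 to 1.47 times. Of all genes tested, 4.67% had KO levels in the order of Il4ra and Socs3. Each KO library was above each WT library in 892 genes (5.5%), and 76 of these had this order. Il4ra and Socs3 were chosen with the difference between the groups in view, so nothing is read from the joint count. With 4 libraries no correlation was computed, and KO 5, the library at 1 end of this order, is also the library that stood apart over all genes.

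**Figure D2:**
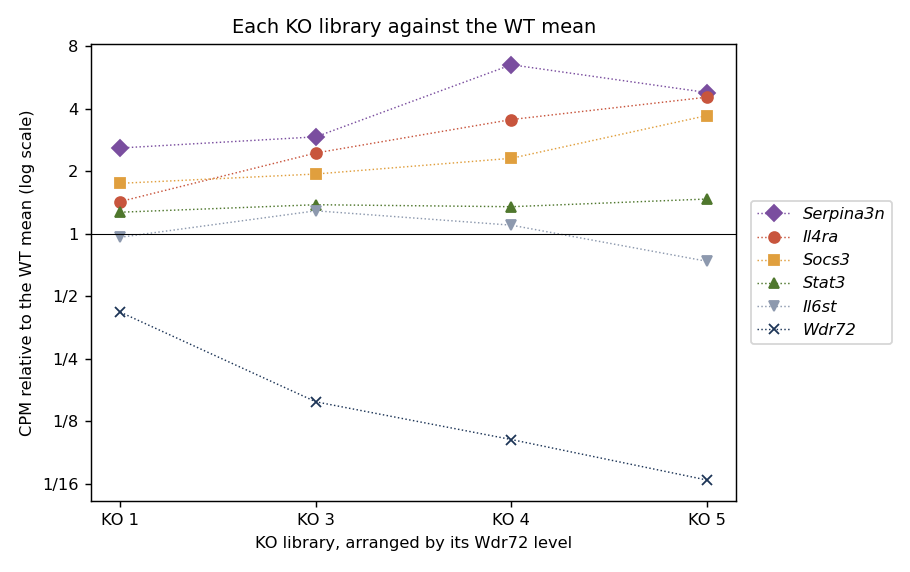
CPM of 6 genes in each KO library divided by the mean of the 4 WT libraries, on a log scale, with the KO libraries arranged by their Wdr72 level; dotted lines only link the points of a gene. Il4ra and Socs3 are highest in KO 5 (4.55 and 3.71 times), where Wdr72 is lowest (0.0651 times).

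Marker levels of other cell types also differed between the groups. The macrophage and leukocyte list (10 of 10 markers tested, 9 of them higher in KO) had a summed level of 128 to 146 CPM in WT against 153 to 198 CPM in KO, groups that did not overlap. Csf1r, Cd68 and C1qa were detected in every library and had log2 fold changes of 0.39, 0.48 and 0.43. Ptprc, the leukocyte marker CD45, had a negative value (-0.39), and Adgre1 was at 0.03. Of the 10 markers, 0 passed an adjusted p of 0.05 in edgeR. The mesenchyme list (8 of 8 higher) lay at 2899 to 4679 CPM in WT against 4493 to 6837 CPM in KO. Col3a1 weighed most in this sum, at 1407 to 2679 CPM in WT and 2528 to 4391 CPM in KO. The oral keratinocyte list (0 of 8 higher, 2 called lower by edgeR) lay at 279 to 566 CPM in WT against 167 to 264 CPM in KO, also without overlap. The endothelial, neutrophil, odontoblast and lymphoid and mast cell lists overlapped between the groups, and no marker was at 0 in all libraries. Among the KO libraries the macrophage sum was 173, 157, 153 and 198 CPM and the mesenchyme sum 6145, 4493, 5501 and 6837 CPM in KO 1, 3, 4 and 5. Both sums were highest in KO 5, as were Il4ra and Socs3, and the order of the other KO libraries differed. The part of these cells in the results was not tested.

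Levels of different genes were compared per gene length, as RPKM (CPM per kilobase of the deposited gene length). Stat3, at 16.7 ± 2.12 RPKM in WT and 22.8 ± 1.37 RPKM in KO, and Il6st, at 17.8 ± 3.54 and 18.2 ± 4.15 RPKM, were the most abundant of the 10. They kept the order Stat3 above Il6st in 6 of 8 libraries, 2 of them WT, so their levels overlapped. Il6st was above Il4ra in 7 of 8 libraries, KO 5 being the exception. Il4ra came next over all libraries (5.01 ± 1.07 RPKM in WT and 15.01 ± 6.76 RPKM in KO) with Socs3 (5.20 ± 0.441 and 12.6 ± 4.59 RPKM), and Il4ra was above Socs3 in 5 of 8 libraries. Socs3 exceeded Socs2 (3.47 ± 0.246 and 3.96 ± 0.605 RPKM) in 8 of 8 libraries, and Socs2 was above Serpina3n in 5 of 8, 4 of them WT.

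Serpina3n held a different place in the order in each group. At 1.26 ± 0.515 RPKM it was below Lifr (2.65 ± 0.327 RPKM) in 4 of 4 WT libraries, and at 5.32 ± 2.30 RPKM it was above Lifr (2.67 ± 0.407 RPKM) in 4 of 4 KO libraries. Lifr was above Il1r1 (1.88 ± 0.386 and 1.92 ± 0.349 RPKM) in 8 of 8 libraries, and Il1r1 was above Cish in 6 of 8. Cish (1.39 ± 0.183 and 1.63 ± 0.273 RPKM) and Osmr (1.26 ± 0.344 and 1.37 ± 0.272 RPKM) were the lowest over all 8 libraries and were in either order in 4 libraries each, although by its WT mean Serpina3n lay below Cish and level with Osmr. Osmr, the partner chain of gp130 for oncostatin M, was thus far less abundant per length than Il6st itself.

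**Figure D3:**
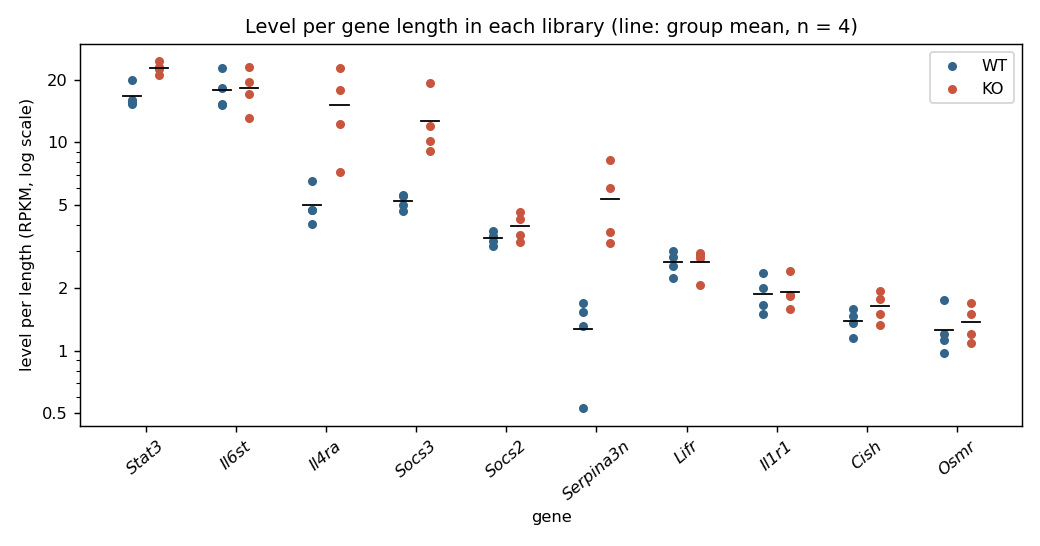
Level per gene length in RPKM of the 10 genes in each library, on a log axis, ordered by the mean over all 8 libraries; lines are group means (n = 4). Stat3 and Il6st lie highest, at WT means of 16.7 and 17.8 RPKM, and Serpina3n lies below Lifr in WT and above it in KO.

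Within the groups, the 10 genes did not vary as a block. Each library's deviation of log2 CPM from its group mean was correlated between genes over 8 libraries, as a description, since deviations within a group are not the contrast used to choose the genes. The 45 pairs had r from -0.66 to 0.85 with a median of 0.17, and 28 pairs were above 0. All genes share the library's scaling, so a part of any r can come from it. The median was -0.12 without WT 5.

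Receptors of the interleukin-6 family varied together, with r = 0.82 for Il6st and Lifr, 0.74 for Osmr and Il6st and 0.50 for Osmr and Lifr. Il1r1, outside this family, had r = 0.59 with Lifr, 0.51 with Osmr and 0.39 with Il6st. Socs2 and Cish, both known STAT5 targets, had r = 0.85. Socs3 and Il4ra had r = 0.75 (0.56 without KO 5), but r was -0.44 over the 4 WT libraries and 0.88 over the 4 KO libraries, so the positive value came from KO. Socs3 and Cish had r = 0.54. Il4ra varied with Stat3 (r = 0.69) and Serpina3n (r = 0.59). Socs3 and Serpina3n had r = 0.26. Socs3 had negative values with Lifr (-0.66), Il6st (-0.57), Il1r1 (-0.55) and Osmr (-0.35), and those with Il6st and Osmr were 0.12 and 0.11 without KO 5. Over the 4 WT libraries alone r was 0.46 with Lifr, -0.028 with Il6st and -0.099 with Il1r1, against -0.95, -0.75 and -0.84 over the 4 KO libraries, so apart from Osmr (-0.49 in WT and -0.43 in KO) the negative values came mainly from KO.

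**Figure D4:**
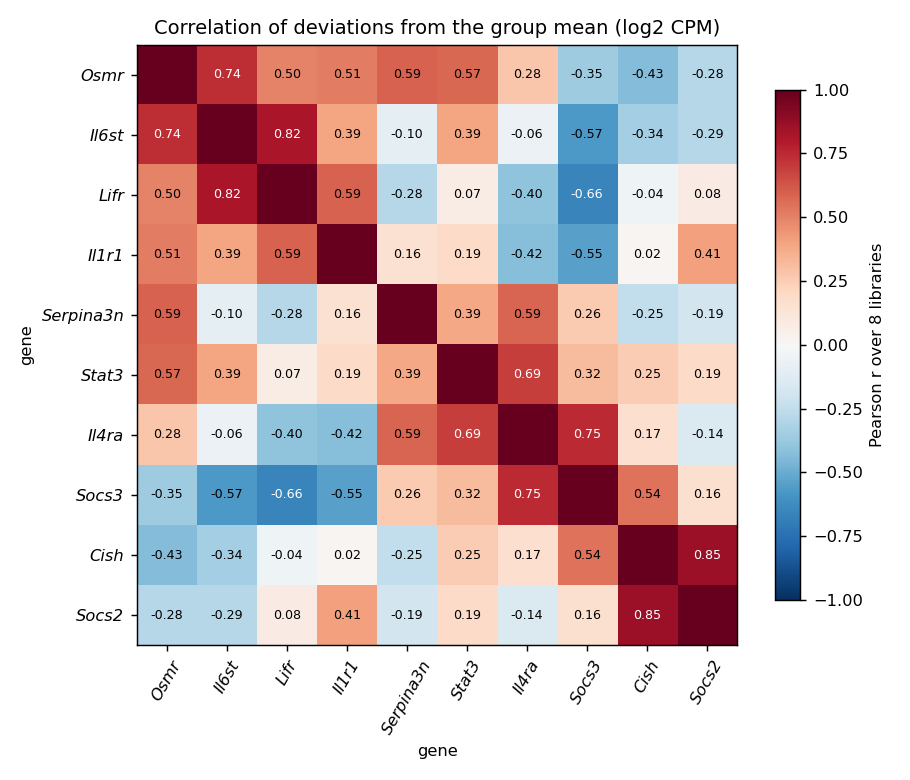
Pearson r between each pair of the 10 genes, from deviations of log2 CPM from the group mean over 8 libraries; red is positive and blue negative. The highest values are those of Cish and Socs2 (0.85), Il6st and Lifr (0.82), Il4ra and Socs3 (0.75) and Osmr and Il6st (0.74). Socs3 is negative with the receptors other than Il4ra over both groups pooled.

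Genes whose deviations within groups were most like those of Socs3, among 11434 genes with a mean of at least 5 CPM, were Apex1 (r = 0.98), Tmem230 (0.98), Rac3 (0.98), Pinx1 (0.98) and Cryzl2 (0.98). Those most like Il4ra were Fbxw8 (0.99), Gdf11 (0.98), Pdpn (0.98), Cbx1 (0.98) and Cdr2 (0.96). Each r is over the same 8 libraries. In each of the 5 genes most like Socs3, KO 5 was the highest of the 8 libraries, as it was for Socs3. Of these 10, Pdpn, a membrane glycoprotein, had the largest difference between groups, at 25.7 CPM in WT against 41.8 CPM in KO (log2 fold change 0.70, adjusted p = 0.10 in edgeR). Il4ra ranked 1674th in likeness to Socs3, and no other of the 10 members ranked higher.

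The other genes of the pathway were taken from a list of 153 ligands, receptor subunits, kinases, STATs, inhibitors and targets, of which 111 passed the low-count filter. By edgeR 0 of 111 passed an adjusted p of 0.05, against 0.0309% of all genes. An unadjusted p of 0.05 was passed by 24 genes with KO higher and by 6 with KO lower, or 27.0%, against 15.7% of all genes. With the Xist level as a covariate these counts were 6 and 3, where 3.05% of all genes were higher and 1.85% lower. At an adjusted p of 0.05 DESeq2 called 7 of the 111 (6 higher and 1 lower), against 2.87% of all genes. By limma voom 15 were called (13 higher and 2 lower), against 6.62% of all genes. The median log2 fold change was 0.08, against 0.02 for all genes tested. The list was written with earlier results of these data known.

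**Figure D5:**
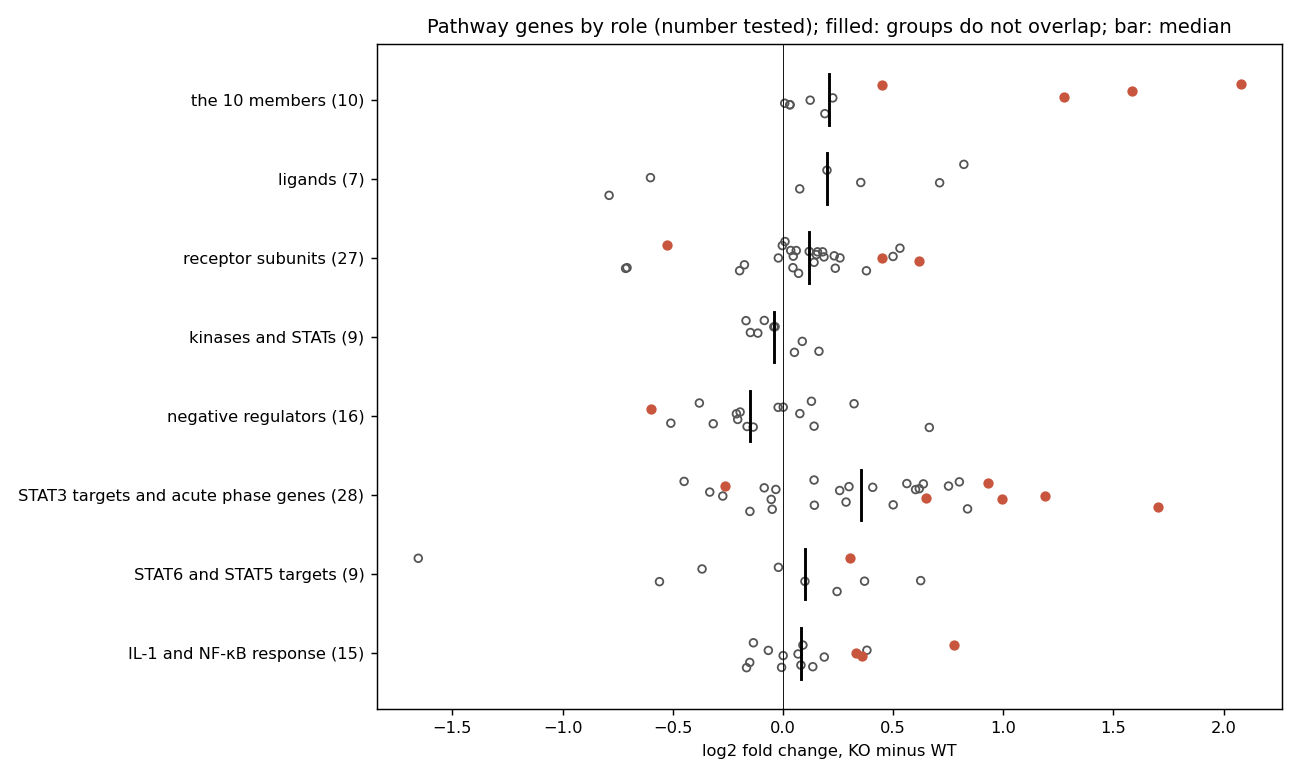
Log2 fold change, KO minus WT, of the 10 members and of the 111 tested pathway genes by role; filled points are genes whose groups do not overlap and bars are medians. The STAT3 targets and acute phase genes have the highest median of the listed roles, 0.35.

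Few ligands were detected, and 7 of 22 passed the filter. Il6 had 12 reads in all 8 libraries together, Il13 had 8 and Osm 48, and these did not pass the filter, where 3 reads in a library correspond to 0.137 to 0.169 CPM. Il1a had 66 reads. Il11, an interleukin-6 family cytokine, was the ligand with the most reads, at 8.35, 9.58, 11.7 and 7.90 CPM in WT against 10.7, 13.4, 16.7 and 25.7 CPM in KO. Its groups overlapped through WT 4 and KO 1 (log2 fold change 0.82, SE 0.24, adjusted p = 0.17). In the KO libraries it had the same order as Socs3. Clcf1, at 12.3 ± 2.14 and 12.9 ± 1.46 CPM, and Lif, at 2.46 ± 0.320 and 2.84 ± 0.995 CPM, had overlapping groups, as did Il1b at 0.551 ± 0.245 and 0.914 ± 0.520 CPM. Il4, a ligand of Il4ra, was at 1.67 ± 0.343 CPM in WT against 1.10 ± 0.205 CPM in KO (log2 fold change -0.60, SE 0.28, adjusted p = 0.32). All adjusted p values of pathway genes are from edgeR's test over all genes.

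Of the partner receptor subunits, 6 of 27 tested passed an unadjusted p of 0.05, 4 of them higher in KO and 2 lower, where 8.7% of all genes were higher and 6.98% lower. Il11ra1, the receptor for interleukin-11, was at 54.3 ± 4.68 CPM in WT against 83.4 ± 31.2 CPM in KO with groups that did not overlap (log2 fold change 0.62, SE 0.20, adjusted p = 0.21). KO 5 had 130 CPM and the other KO libraries 63.3 to 72.6 CPM. Its count is uncertain, since Dctn3 overlaps it with 93.1% as many reads. Il1r2, the decoy receptor for interleukin-1, was lower in each KO library, at 13.8 ± 2.37 and 9.60 ± 1.86 CPM (log2 fold change -0.53, SE 0.18, adjusted p = 0.21). The chains that pair with Il4ra had overlapping groups, Il13ra1 at 58.5 ± 4.97 and 65.2 ± 6.81 CPM and Il2rg at 3.95 ± 0.535 and 4.49 ± 1.18 CPM. Il6ra, at 7.92 ± 1.16 and 8.12 ± 1.38 CPM, and Il1rap, the accessory chain of Il1r1, at 13.8 ± 1.87 and 12.2 ± 2.21 CPM, overlapped too.

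The kinases and other STATs had 0 of 9 tested genes past an unadjusted p of 0.05, and 0 with groups that did not overlap, where 15.7% and 10.9% of all genes did, so that a count of 0 in a list of this size is near the background. Their log2 fold changes lay between -0.17 and 0.16, below the 0.45 of Stat3, a difference that was not tested. Jak1 was at 164 ± 9.69 and 155 ± 30.2 CPM, Jak2 at 45.9 ± 1.34 and 41.4 ± 10.05 CPM and Tyk2 at 26.8 ± 2.46 and 26.1 ± 2.20 CPM. Stat6, the main mediator of Il4ra, was at 110 ± 5.58 and 106 ± 8.80 CPM. Stat5a was at 10.2 ± 1.38 and 10.6 ± 0.803 CPM, Stat5b at 38.3 ± 2.29 and 34.1 ± 2.31 CPM and Jak3 at 18.5 ± 2.62 and 20.7 ± 2.44 CPM. Counts of Stat5a, which Stat3 overlaps with more reads, and of Jak1, which Raver2 overlaps with 71.1% as many, are uncertain.

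Among 16 other inhibitors the median log2 fold change was -0.15. Socs4, another family member, was lower in each KO library, at 55.9, 60.4, 55.8 and 50.3 CPM in WT against 37.0, 41.1, 40.1 and 28.4 CPM in the KO libraries (log2 fold change -0.60, SE 0.13, adjusted p = 0.096). Without KO 5 it passed, at a log2 fold change of -0.50 (adjusted p = 0.041). Socs7 was at 165 ± 19.2 and 127 ± 21.6 CPM (log2 fold change -0.38, SE 0.14, adjusted p = 0.25). Socs1 was at 3.86 ± 1.003 and 6.12 ± 2.86 CPM (log2 fold change 0.66, SE 0.29, adjusted p = 0.31), with KO 5 at 10.4 CPM and the other KO libraries within the range of WT. The SOCS genes thus had differences of either sign.

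Known STAT3 targets and acute phase genes had the highest share past an unadjusted p of 0.05, with 12 of 28 tested higher and 0 lower, where 8.7% of all genes were higher. Their median log2 fold change was 0.35. At an unadjusted p of 0.05, 9 were higher and 1 lower without KO 5, with a median of 0.20. Of all genes 7.97% were then higher and 6.91% lower, with a median of -0.0019. Without KO 1 and KO 5, 8 were higher and 2 lower with a median of 0.18. Here 6.55% of all genes were higher and 5.29% lower, with a median of -0.010. With the Xist covariate 3 were higher and 0 lower (3.05% of all genes higher), with a median of 0.33, and limma voom gave 10 higher and 5 lower with a median of 0.19 (13.3% of all genes higher and 11% lower). Bcl3, a nuclear IκB-family protein, was at 4.64, 5.34, 6.21 and 5.42 CPM in WT against 8.36, 7.79, 13.1 and 13.9 CPM in the KO libraries (log2 fold change 0.99, SE 0.21, adjusted p = 0.089). Fgg, the fibrinogen gamma chain, was at 1.05, 0.810, 0.853 and 2.93 CPM in WT against 3.11, 4.12, 5.84 and 5.09 CPM in the KO libraries (log2 fold change 1.70, SE 0.39, adjusted p = 0.10). Fgg passed without WT 5, its highest WT library, at a log2 fold change of 2.33 (adjusted p = 0.036). Of the 28 genes, 19 had a positive log2 fold change. Those with a negative one included Hif1a (-0.26), C3 (-0.33), Mt1 (-0.27), Lcn2 (-0.05) and Hp (-0.05). Hif1a was at 385 to 465 CPM in WT against 324 to 384 CPM in KO, without overlap (unadjusted p = 0.0501 in edgeR).

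Cebpd, a transcription factor of the acute phase response, was at 18.7 ± 4.43 CPM in WT against 35.7 ± 15.6 CPM in KO, with 59.1 CPM in KO 5 and 27.0 to 28.9 CPM in the other KO libraries (log2 fold change 0.93, SE 0.26, adjusted p = 0.16). It overlaps Spidr, which had 49.4% as many reads, and its count is uncertain. Timp1 was at 40.9 ± 2.17 and 57.9 ± 18.8 CPM, Lrg1 at 4.29 ± 0.499 and 6.62 ± 2.08 CPM and Pim1 at 19.9 ± 2.10 and 24.5 ± 5.64 CPM, all with overlapping groups and with KO 5 highest. Saa3, a serum amyloid A gene that is strongly induced in acute inflammation, had 4 reads in all 8 libraries together.

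Targets of STAT6 and STAT5 had 3 of 9 tested past an unadjusted p of 0.05, 2 with KO higher and 1 with KO lower, where 15.7% of all genes passed. Arg1, a marker of interleukin-4 activated macrophages, was at 3.26, 2.05, 0.427 and 3.55 CPM in WT against 0.655, 0.458, 0.966 and 0.831 CPM in KO, so WT 4 lay below all KO libraries (log2 fold change -1.66, SE 0.52, adjusted p = 0.19). With the Xist covariate the log2 fold change of Arg1 turned to 0.21. Igf1 was at 137 ± 15.3 and 169 ± 9.40 CPM with groups that did not overlap (log2 fold change 0.31, SE 0.11, adjusted p = 0.25). In the interleukin-1 and NF-κB group 3 of 15 were higher and 0 lower at that threshold, where 8.7% of all genes were higher. Icam1, an adhesion molecule, was at 11.2, 9.68, 9.91 and 12.7 CPM in WT against 16.4, 14.2, 19.7 and 24.1 CPM in the KO libraries (log2 fold change 0.78, SE 0.17, adjusted p = 0.10). Rela, the p65 subunit of NF-κB, was at 43.2 ± 2.18 and 55.3 ± 3.92 CPM with groups that did not overlap (log2 fold change 0.36, SE 0.098, adjusted p = 0.15).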

How the data were processed

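RNA-seq counts were analysed for 4 WT and 4 KO libraries. The authors deposited raw read counts per Ensembl gene, with gene names, GRCm38 coordinates and gene lengths; 98.8% of the 54409 gene IDs shared with GENCODE M21 had the same start. Libraries were polyA-selected, per the labels' protocols. CASAVA and mm39 are named in the submitters' processing notes. Aligner, counter and strandedness: not given in the sources used here, so reads shared by overlapping genes are uncertain.

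Counts were filtered with filterByExpr (minimum count 10, minimum total 15), scaled by TMM and tested KO against WT in edgeR 4.0.16 (R 4.3.3; robust quasi-likelihood, no covariate, two-sided), with Benjamini-Hochberg adjustment over 16205 genes. SEs were derived from the fold change and the F statistic. DESeq2 1.42.0 and limma voom 3.58.1, other scalings and filters, an Xist covariate, a replicate block and left-out libraries were alternatives. Log2 CPM used a prior count of 2. The fits were tested on simulated data. Replicate libraries differed by more than sampling noise.

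The members, the lists and the tests were chosen with earlier results of these data known. Named were the members, Wdr72, the 2 pathway genes of smallest p per role, other pathway genes listed by name, and the 5 genes most like Socs3 and Il4ra. Serpina3i, Gh, Hif1a, C3, Mt1, Lcn2 and Hp were named after their values were seen. 1 pathway gene of the rule is not reported here. Promoters are from RefSeq.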

Additional observations from a re-analysis of the deposited data

Results flagged for a closer look

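In groups of 4 libraries, 6 of the 84 groups tested held a library far from the other 3, where chance flags about 1 in 20 groups. A group was the WT or KO libraries of a member or of a pathway gene named by the rule, so every flag fell in such a gene. In 5 of the 6 this library was KO 5, which also stood apart over all genes. These were Lif at 4.31 CPM, where the next KO library had 2.52, Il11ra1 at 130 CPM (next 72.6), Socs1 at 10.4 CPM (next 5.10), Cebpd at 59.1 CPM (next 28.9) and Pim1 at 32.9 CPM (next 22.5). In the sixth it was WT 5, with Fgg at 2.93 CPM (next 1.05). None of the 10 members was among them.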

How the results depend on the processing

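The number of genes called over the whole table, 5, was 2 with library totals as scaling, 241 without the low-count filter, 465 with DESeq2, 1073 with limma voom, 11 without KO 1 and KO 5, 1 with the Xist covariate and 0 to 55 when single libraries were left out (55 without KO 5, 16 without WT 4, and 0 without WT 2, WT 3, KO 3 or KO 4). Of the pathway genes, 0 were called, against 5 without the filter, 7 with DESeq2, 15 with limma voom and 0 to 1 with single libraries left out. Of the 10 members, 0 were called, against 1 (Socs3) without the filter, 4 with DESeq2 and limma voom, 1 (Socs3) without KO 1 and KO 5, and 0 to 1 with single libraries left out. The cause of these differences was not tested. Over 18 alternatives the log2 fold change was 1.31 to 1.82 for Il4ra, 1.0002 to 1.41 for Socs3, 1.79 to 3.16 for Serpina3n and 0.40 to 0.54 for Stat3.

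The groups share replicate numbers 3, 4 and 5, but the labels do not say that a number pairs libraries. Same-numbered libraries had correlations of their deviations of -0.14 to -0.092, and 0 of 3 matched best with their own number. With the replicate block 1 gene was called, and 0 members and 0 pathway genes. At an unadjusted p of 0.05 the block left 13 of 111 pathway genes higher and 3 lower, where 4.15% of all genes were higher and 2.56% lower. Of the 28 STAT3 targets and acute phase genes tested, 8 were higher and 0 lower.

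Log2 fold changes that changed sign were mostly small. With single libraries left out, the ranges were -0.072 to 0.31 for Lif, -0.012 to 0.17 for Clcf1, -0.069 to 0.11 for Il6ra, -0.011 to 0.28 for Il2rg, -0.17 to 0.043 for Jak1, -0.26 to 0.0100 for Jak2, -0.099 to 0.015 for Tyk2, -0.028 to 0.13 for Stat5a and -0.075 to 0.015 for Stat6. The negative values of Lif and Il2rg and the positive ones of Jak1, Jak2 and Stat6 were those without KO 5. Without KO 1 and KO 5 the values were -0.0054 for Socs2, -0.076 for Lif, -0.026 for Il2rg, 0.087 for Jak1, 0.043 for Jak2, 0.056 for Tyk2 and 0.0042 for Stat6. With limma voom they were -0.14 for Lif, 0.056 for Jak1 and 0.0094 for Stat6. With the replicate block they were -0.0065 for Clcf1 and 0.055 for Tyk2, and with library totals -0.0087 for Il6ra. With the Xist covariate they were -0.17 for Il6ra, 0.14 for Tyk2, 0.034 for Stat6 and 0.21 for Arg1. The median r between members was 0.12 to 0.24 without single libraries other than WT 5, and -0.12 without WT 5. For Socs3 the r with Il6st was -0.75 to 0.12 and with Osmr -0.60 to 0.11, positive without KO 5. Depth limited Serpina3n and the ligands, and counts under 3 reads were read as not detectable.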

Other observations

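Growth hormone (Gh), a ligand upstream of Cish and Socs2 that is made mainly by the pituitary, was outside the test because of its few reads. It had 3, 0, 2 and 0 reads in WT 2, 3, 4 and 5 and 26, 16, 10 and 47 reads in KO 1, 3, 4 and 5. Each KO library thus lay above each WT library, and without the low-count filter Gh passed in edgeR. It was picked out after its values were seen. Among the KO libraries Gh was highest in KO 5, as Socs3 and Il4ra were, and lowest in KO 4.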
